A study of Mus musculus with 3 samples.

Results

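Ace, Ear2, Wfdc17, Nupr1, Eno3, Treml4, Pglyrp1, Adgre4 and Cd300e are 9 of the 32285 genes counted in single splenocytes of this study. They were taken by name from the gene list, and all 9 were found. They had been selected on their measured levels in nonclassical monocytes, which earlier results of these data had split by library, so their levels in those cells are given as a description with no support drawn from them. The gene levels below are CPM, the unique molecular identifiers (UMIs) of a gene per 1e6 UMIs of the same cells, where each UMI stands for 1 captured RNA molecule. Such counts are compared for 1 gene between cells or libraries, and not between genes.

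Spleens came from mice labelled 12 to 14 weeks old, T cells were depleted with CD3 microbeads, and each condition pooled the cells of 3 mice. There were 3 libraries of 2 conditions each. The control library held male sham and female C57BL/6 mice. For that library, minipumps for 2 weeks from 10 weeks of age are recorded, with no angiotensin II dose. The Ang II library held C57BL/6 mice, male in the series design, that carried minipumps for 2 weeks from 10 weeks of age with 490 ug/kg/min of angiotensin II as labelled, a unit not checked elsewhere that may stand for ng, with placebo or with 2-hydroxybenzylamine (2-HOBA), a scavenger of isolevuglandins. The B6.SLE123 library held mice of a lupus-prone congenic strain on the C57BL/6 background, female in the study's description, given placebo or 2-HOBA for 6 weeks from 7 weeks of age. Strain or treatment and library therefore cannot be told apart, and the sexes were not balanced between libraries. Each library carried 6 hashtag antibodies, C0301 to C0306, none of which was named for a condition, so the effect of 2-HOBA was not analysed here and the hashtag populations are shown as parts of 1 library. Since each group was a single library, groups were not tested against each other, and all 95% intervals cover counting error only. Both contrasts used the same control library.

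The matrices held 18218 barcodes in the control, 16062 in the Ang II and 20691 in the B6.SLE123 library, with 44146350, 59043555 and 63516694 UMIs in genes. After limits on mitochondrial RNA and on RNA counts, which the study states and which were read here as genes detected, and removal of barcodes with several hashtags, 15700, 14023 and 16708 cells were kept, with a median of 1759, 2724 and 1888 UMIs. Between 415 and 496 barcodes were shared by a pair of libraries, which was 2.58% to 2.95% of the smaller one. T cells were nearly absent from the control and B6.SLE123 libraries, with 17 and 11 T cell-like cells, and the Ang II library held 303. Xist was found in 0.165% to 0.386% of cells with control hashtags C0301 to C0303, in 49.2% to 51.7% with C0304 to C0306, in 0% with any Ang II hashtag and in 46.6% to 54.9% with each B6.SLE123 hashtag.

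Nonclassical monocytes patrol the vessel wall and take up debris in the vascular bed. In mice they arise from classical Ly6C-high monocytes in a step that needs the nuclear receptor Nr4a1, and they carry high Csf1r, Cx3cr1 and Fcgr4 and low Ly6c2 and Ccr2. Spleen holds a resident pool of both kinds. Several of the 9 genes encode surface proteins of these cells. Ace is the angiotensin-converting enzyme, a membrane peptidase that makes angiotensin II from angiotensin I and degrades bradykinin. Adgre4 is an adhesion G protein-coupled receptor related to F4/80, Treml4 a receptor of the TREM family that binds dying cells, and Cd300e an activating receptor of the CD300 family. Ear2, Wfdc17 and Pglyrp1 encode secreted or granule proteins: an eosinophil-associated ribonuclease, a small WAP-domain protein of activated macrophages, and a peptidoglycan recognition protein of neutrophil granules. Nupr1 is a stress-induced nuclear protein, and Eno3 is the muscle form of the glycolytic enzyme enolase.

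By the GENCODE annotation of GRCm38 (mm10), 4 of the 9 genes lay on chromosome 11, 2 on chromosome 7, 2 on chromosome 17 and 1 on chromosome 14. Ace spanned chr11:105967945-105989964 on the plus strand with 25 exons, and Wfdc17 spanned chr11:83703991-83706268 on the plus strand with 3 exons. Pglyrp1 lay at chr7:18871331-18890459 on the plus strand, Nupr1 at chr7:126623249-126630861 on the minus strand, and Cd300e at chr11:115051917-115062177 on the minus strand. Eno3 at chr11:70657202-70662513, Treml4 at chr17:48264295-48275360, Adgre4 at chr17:55749984-55853662 and Ear2 at chr14:44102654-44103534 were on the plus strand. Ear2 belongs to a family of near-identical genes, so its counts are uncertain to the extent that reads could not be placed between copies.

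RefSeq promoters of GRCm38.p6 were matched for all 9 genes. The 250 bases before the annotated start are printed for Ace and Wfdc17, the members with the lowest and the highest B6.SLE123 to control ratio in nonclassical monocyte-like cells, with Pglyrp1 for the motif that it shared with Wfdc17. Ace has 2 listed starts, the upstream one of the somatic enzyme and another inside intron 12. The latter is known as the start of the testis form. The listed Pglyrp1 start, chr7:18884690, lies inside the gene as annotated by GENCODE, downstream of its 5′ end at chr7:18871331. The windows are chr11:105967698-105967947 and chr11:105974939-105975188 for Ace, chr11:83703806-83704055 for Wfdc17 and chr7:18884440-18884689 for Pglyrp1, all on the plus strand and written 5′ to 3′. Capitals mark matches on the other strand, of a TATA sequence in Ace and of a KLF sequence in Wfdc17 and Pglyrp1.
Ace, upstream start: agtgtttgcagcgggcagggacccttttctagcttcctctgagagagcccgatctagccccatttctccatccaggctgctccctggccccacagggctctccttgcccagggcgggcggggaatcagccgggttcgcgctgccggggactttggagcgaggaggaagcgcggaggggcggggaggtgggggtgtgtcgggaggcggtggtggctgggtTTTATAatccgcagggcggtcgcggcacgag
Ace, start in intron 12: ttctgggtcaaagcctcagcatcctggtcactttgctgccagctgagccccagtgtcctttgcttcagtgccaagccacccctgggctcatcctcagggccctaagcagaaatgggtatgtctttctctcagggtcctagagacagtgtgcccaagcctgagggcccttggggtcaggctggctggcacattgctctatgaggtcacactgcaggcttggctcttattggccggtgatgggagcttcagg
Wfdc17: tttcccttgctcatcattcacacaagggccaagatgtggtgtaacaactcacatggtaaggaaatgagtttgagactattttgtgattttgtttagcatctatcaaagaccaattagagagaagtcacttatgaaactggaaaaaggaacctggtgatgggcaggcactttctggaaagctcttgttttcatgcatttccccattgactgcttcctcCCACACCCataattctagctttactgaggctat
Pglyrp1: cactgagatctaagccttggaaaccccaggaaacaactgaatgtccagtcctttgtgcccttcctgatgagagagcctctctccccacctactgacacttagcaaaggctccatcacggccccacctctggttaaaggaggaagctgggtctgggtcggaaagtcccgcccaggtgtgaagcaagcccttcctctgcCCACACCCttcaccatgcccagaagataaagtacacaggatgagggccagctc

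On both strands, TATAAA was found in 1 of the 10 members' windows, at 31 to 26 bases before the upstream Ace start, and in 12.4% of all 32851 RefSeq promoter windows. GGGTGTGG, a KLF sequence, was read as CCACACCC at 33 to 26 bases before the Wfdc17 start and at 53 to 46 bases before the Pglyrp1 start, and 3.20% of all windows held it. The NR4A element AAAGGTCA (1.34% of all windows), the PU.1 sequence GAGGAAGT (2.44%), the C/EBP sequence TTGCNNCAA (1.74%) and the RUNX sequence TGTGGTTT (1.49%) were found in 0 of the 10 windows. The first Ace window was the most GC-rich of the 10 at 67.2%, against 41.2% for Wfdc17. These matches describe letters in these windows and were not measured as binding.

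Nonclassical monocyte-like cells were gated without any of the 9 genes, on Csf1r, Cx3cr1, Spn, Itgal, Fcgr4 and Pou2f2, and cells rich in neutrophil S100 or C1q transcripts were left out. The gate held 220 cells of the control library, 104 of the Ang II library and 315 of the B6.SLE123 library, with a median of 2186, 3166 and 1482 UMIs. All 6 markers were detected in these cells in each library, and their summed level was 3914, 3449 and 3649.9 CPM. The 6 classical monocyte markers, which share Csf1r with the gate, summed to 1495, 1687 and 1419.8 CPM, of which Vcan was at 0 UMIs in the control library. The 7 neutrophil markers summed to 126, 249.9 and 259.8 CPM, with 1, 2 and 1 of them at 0, and the 4 plasma cell markers to 248, 227 and 2060.2 CPM. The 5 C1q dendritic cell markers summed to 114 CPM in control and 247 CPM in B6.SLE123 with Ang II between, and 3, 3 and 0 of them were at 0. The 9 red pulp macrophage markers summed to 72.0, 167 and 222 CPM, with 5, 5 and 2 at 0. The part of these other transcripts in the levels below was not tested. Ace was among the genes with the largest fold over other kept cells in each library, together with Smpdl3b, Ly6i, Cd300ld3 and Ear2. An immunoglobulin kappa segment, Igkv5-48, stood among the 10 leading genes in the B6.SLE123 library.

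The members were concentrated in this gate to very different degrees. In the control library, 73.0% of all Ace UMIs, 69.1% of Cd300e, 60.6% of Adgre4, 58.6% of Ear2 and 54.4% of Treml4 fell in the 220 nonclassical monocyte-like cells. For Eno3 and Nupr1 it was 49.2% and 39.5%. Wfdc17 and Pglyrp1 were mostly elsewhere, with 4.07% and 7.32% of their UMIs in the gate, and 53.6% of Pglyrp1 UMIs were in neutrophil-like cells. In the Ang II library Eno3 had 28.6% of its UMIs in the gate against 48.5% in B cell-like cells, and Nupr1 had 36.7%. In the B6.SLE123 library the shares in the gate were lower than in control for all members but Wfdc17, which had 4.35%. Pglyrp1 had 4.89%, and the 7 other genes ran from 29.6% for Nupr1 and 31.3% for Cd300e to 46.5% for Ace. As a name for where most of a member's RNA was, nonclassical monocyte gene held for 5 members in the control library, for 3 (Ace, Cd300e and Adgre4) in the Ang II library and for none of the 9 in the B6.SLE123 library. These shares also depend on which cells the gate caught. In the libraries of control, Ang II and B6.SLE123, 4.09%, 3.85% and 6.47% of kept cells joined no class. Neutrophil or C1q transcripts left out 1, 2 and 21 nonclassical monocyte-like cells. The part of this in the shares was not tested.

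Within nonclassical monocyte-like cells, Ace was lower and Wfdc17 higher in the B6.SLE123 library than in the control library. Of all genes with at least 50 UMIs over both libraries, 3505 were compared, and 3.68% differed 2-fold or more in either direction. Of the 9 members, 1 did so, Wfdc17. The median log2 ratio was 0.49 over the members and 0.01 over all genes compared. In the Ang II library none of the 9 members reached 2-fold against control, where 2.10% of 3047 genes did, and the median log2 ratio was -0.25 over the members and -0.01 over all genes. Ranges over the hashtag populations did not overlap for 0 of 9 members in either contrast, against 1.88% of genes for B6.SLE123 and 1.08% for Ang II.

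Ace stood at 941 CPM (865 to 1022) in the control, 755 CPM (672 to 845) in the Ang II and 572 CPM (513 to 635) in the B6.SLE123 library, from 562, 302 and 350 UMIs. By hashtag, the lowest, median and highest levels were 765, 998 and 1089 CPM in the control, 621, 718 and 1012 CPM in the Ang II and 417, 685 and 831 CPM in the B6.SLE123 library. The B6.SLE123 populations reached into the control range only at their upper end, since 4 of the 6 were below the lowest control population. The same count, 4 of 6, held for the Ang II populations. Against control, B6.SLE123 had a log2 ratio of -0.72 (-0.91 to -0.52), and Ang II one of -0.32 (-0.52 to -0.11). The lowest population, B6.SLE123 hashtag C0303, held 137 of the 315 gated cells, and without it the ratio was -0.41.

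Wfdc17 stood at 211 CPM (176 to 251) in the control, 255 CPM (208 to 309) in the Ang II and 506 CPM (452 to 566) in the B6.SLE123 library, from 126, 102 and 310 UMIs. By hashtag, the control populations ran from 127 to 363 CPM with a median of 198, those of Ang II from 139 to 515 with a median of 258, and those of B6.SLE123 from 200.3 to 863 with a median of 377. The highest population was B6.SLE123 hashtag C0302, and 4 of the 6 B6.SLE123 populations lay above the highest control one. The log2 ratio was 1.26 (0.96 to 1.57) for B6.SLE123 and, for Ang II, 0.27 (-0.12 to 0.66) with an interval that held 0. The Ang II ratio turned to -0.93 with the study's cell limits read as UMIs. It was also below 0 against control cells with an Xist UMI. The Ang II hashtag populations held no Xist, so those control cells differ from them in sex. The B6.SLE123 ratio stayed between 1.06 and 1.50 when 1 hashtag population was left out. Against only the 59 control cells with an Xist UMI it was 0.85 (0.44 to 1.29), and it was 0.48 when all monocyte-like cells entered, both short of 2-fold. It was 2.70 when cells with at least 1000 UMIs were thinned to 1000 UMIs and gated anew. That left 177 B6.SLE123 and 126 control cells, a different set from that of the main ratio.

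**Figure D1:**
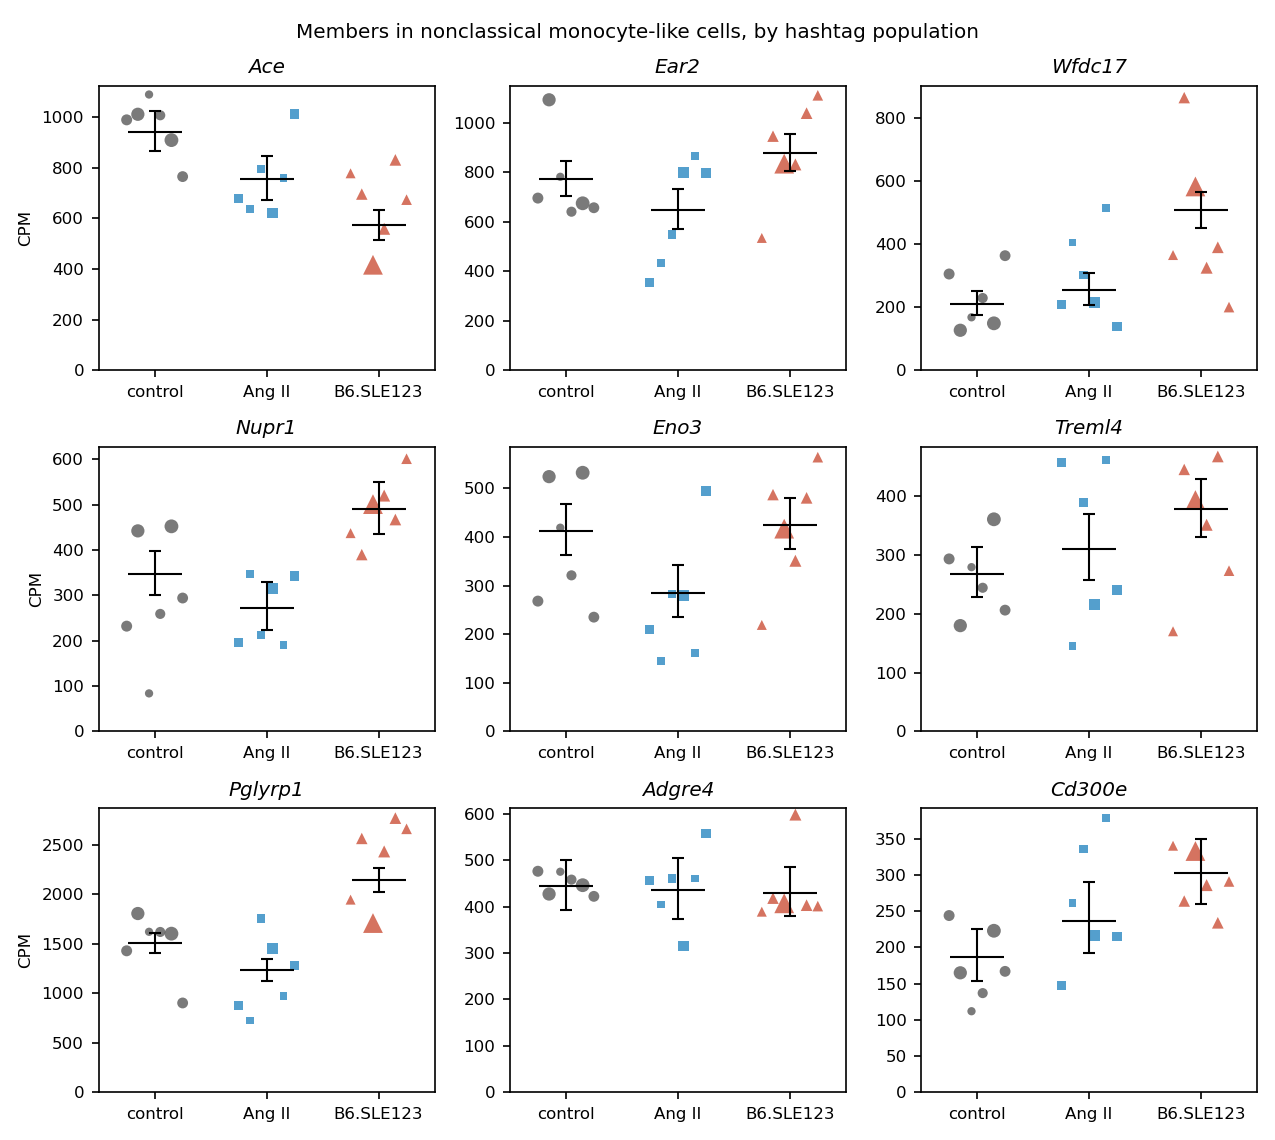
Levels of the 9 genes in nonclassical monocyte-like cells, in CPM on the vertical axes, for the 3 libraries: each point is 1 hashtag population with its area set by the number of cells, and each black bar is the library's level with its 95% counting interval. The B6.SLE123 points of Ace run from 417 to 831 CPM and the control points from 765 to 1089 CPM, and for no gene are the ranges of these libraries apart.

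Among the other surface proteins, Cd300e was higher in B6.SLE123 and Adgre4 was level. Cd300e stood at 187, 237 and 302 CPM in the libraries of control, Ang II and B6.SLE123, from 112, 95 and 185 UMIs. Its hashtag populations had medians of 166, 238 and 289 CPM and ran from 112 to 244, 148 to 379 and 234 to 340.3 CPM, so 5 of the 6 B6.SLE123 populations lay above the highest control one. The log2 ratio was 0.69 (0.34 to 1.04) for B6.SLE123 and, for Ang II, 0.34 (-0.07 to 0.75). Treml4 stood at 268, 309.9 and 377 CPM with medians over hashtags of 262, 315 and 372 CPM, and its log2 ratio for B6.SLE123 was 0.49 (0.20 to 0.79). Treml4 populations of B6.SLE123 ran from 170.1 to 467 CPM and covered the whole control range of 179.7 to 360.3 CPM. Adgre4 was close to level between the libraries, at 444, 435 and 429.7 CPM, and the intervals of both log2 ratios held 0, with -0.05 (-0.30 to 0.21) for B6.SLE123 and, for Ang II, -0.03 (-0.31 to 0.25). Its control populations were close together, from 422 to 476 CPM, while 5 of the B6.SLE123 populations lay just below them and the other at 598 CPM.

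Of the secreted proteins, Pglyrp1 was higher in B6.SLE123 nonclassical monocyte-like cells, and Ear2 differed little in the main comparison. Pglyrp1 stood at 1506, 1235 and 2140.3 CPM from 900, 494 and 1310 UMIs. The control populations ran from 902 to 1804 CPM with a median of 1609.6, those of Ang II from 724 to 1752 with a median of 1127, and those of B6.SLE123 from 1708 to 2766 with a median of 2495. Only hashtag C0303 of the B6.SLE123 library fell inside the control range, and the log2 ratio was 0.51 (0.38 to 0.63), against -0.29 (-0.45 to -0.13) for Ang II. Ear2 stood at 772, 647 and 877 CPM, with hashtag medians of 685, 673 and 891 CPM. Its ranges of 641 to 1093, 357 to 867 and 535 to 1111 CPM overlapped, and 3 Ang II populations lay below the lowest control one. The log2 ratio of Ear2 was 0.19 (0.00 to 0.37) for B6.SLE123 and, for Ang II, -0.25 (-0.48 to -0.03). Against control cells with an Xist UMI, the Ear2 ratio was 0.72 for B6.SLE123 and 0.28 for Ang II, whose cells do not match these in sex. With cells thinned to 1000 UMIs and gated anew, it was -0.10 for B6.SLE123.

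Of the intracellular proteins, Nupr1 was higher in B6.SLE123 than in control cells, and Eno3 was lower in Ang II cells. Nupr1 stood at 346, 272 and 490.1 CPM, with hashtag medians of 277, 264 and 484 CPM. The control populations of Nupr1 were widely spread, from 83.8 to 452 CPM, and those of B6.SLE123 ran from 389.7 to 601 CPM, 4 of them above the highest control one. Its log2 ratio was 0.50 (0.24 to 0.76) for B6.SLE123 and, for Ang II, -0.35 (-0.70 to -0.01). Eno3 stood at 412, 285 and 425 CPM with hashtag medians of 369.7, 244 and 449 CPM. The log2 ratio of Eno3 was -0.53 (-0.86 to -0.21) for Ang II and, for B6.SLE123, 0.04 (-0.21 to 0.30), the latter with an interval that held 0.

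**Figure D2:**
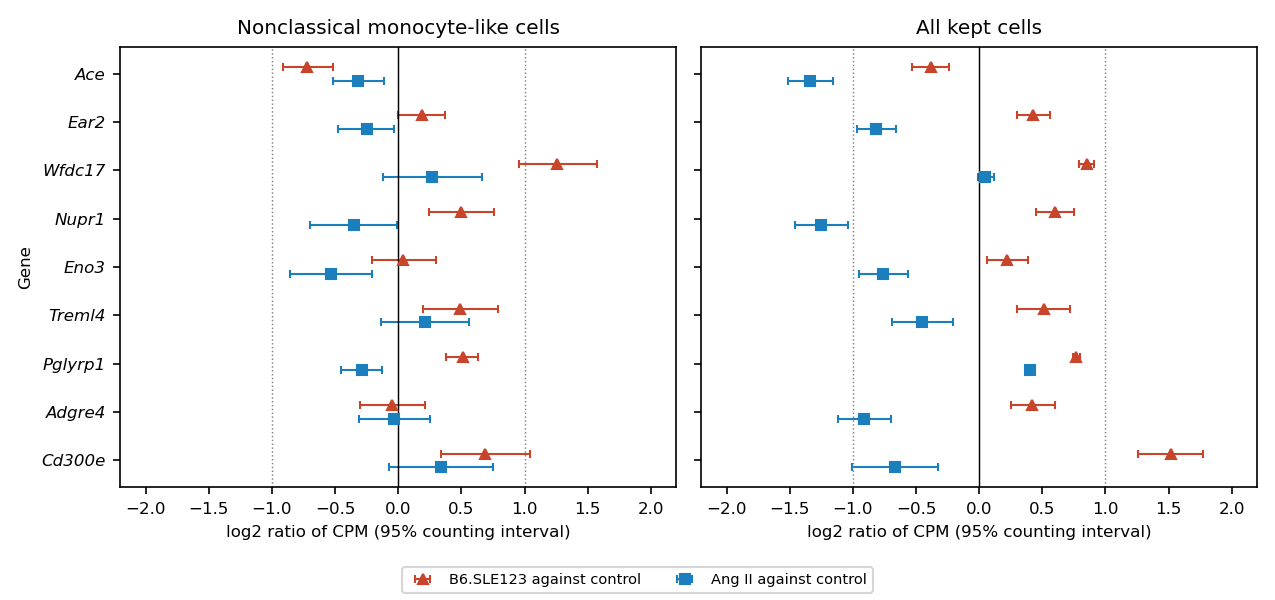
Log2 ratios of CPM for the 9 genes, B6.SLE123 against control and Ang II against control, with exact 95% counting intervals, in nonclassical monocyte-like cells in 1 panel and in all kept cells in the other; dotted lines mark 2-fold. Wfdc17 at 1.26 is the point beyond a dotted line in nonclassical monocyte-like cells, and Cd300e at 1.52, Ace at -1.34 and Nupr1 at -1.25 are those in all kept cells.

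The split was also read per cell. In the B6.SLE123 library 55.2% of nonclassical monocyte-like cells had an Ace UMI, against 78.2% in the control library and 84.6% in the Ang II library. Cells with 5 or more Ace UMIs made up 4.44% in the B6.SLE123 library, 16.4% in the control library and 22.1% in the Ang II library. Because the B6.SLE123 cells were shallower, each cell was also thinned to 1000 UMIs, which left out 13, 5 and 65 cells of the libraries of control, Ang II and B6.SLE123. The share with an Ace UMI was then 59.9% (52.9 to 66.6), 50.5% (40.3 to 60.7) and 41.6% (35.4 to 48.0). Among the cells left, the B6.SLE123 share was below the control share. The Ang II share passed from above the control share to below it, with overlapping intervals. The cells compared differ from those before thinning, and the part of depth in the split was not tested. In B cell-like cells, which should lack Ace, the share with a UMI before thinning was 0.0988%, 0.0866% and 0.382%, at median depths of 1775, 2747 and 1932 UMIs.

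Wfdc17 was carried by a minority of these cells. It was found in 18.2% of the control, 26.9% of the Ang II and 31.4% of the B6.SLE123 cells, and after thinning in 8.70% (5.24 to 13.4), 10.1% (4.95 to 17.8) and 22.8% (17.7 to 28.5). The B cell-like share was 3.16%, 3.90% and 7.38% before and 1.76%, 1.64% and 4.65% after thinning, so it was higher in the B6.SLE123 library as well. The shares in the gate lay above those of B cell-like cells in each library. A few cells held most of the signal: in the control library 10 cells with 5 or more UMIs gave 56.3% of the 126 Wfdc17 UMIs, and in the B6.SLE123 library 22 cells gave 54.5% of 310. With the B cell-like level subtracted in each library, the log2 ratio for B6.SLE123 was 1.27.

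Thinning also changed which library led for other members. Before thinning, the deeper Ang II library had the highest share of cells with a UMI of Ear2, Treml4, Adgre4 and Cd300e, and after thinning it had the highest share for none of these. After thinning, Pglyrp1 was found in 66.2%, 60.6% and 78.8% of nonclassical monocyte-like cells from control, Ang II and B6.SLE123, and in 12.4%, 11.7% and 12.5% of B cell-like cells. Ear2 was found in 43.0%, 46.5% and 52.4%, Treml4 in 22.2%, 24.2% and 34.0%, Cd300e in 19.8%, 16.2% and 27.2%, and Nupr1 in 25.6%, 20.2% and 33.6%. For these 5 genes the B6.SLE123 share was the highest after thinning. Its interval was apart from that of control for Pglyrp1, with 73.2 to 83.7 against 59.3 to 72.6. For Ear2, Treml4, Cd300e and Nupr1 it overlapped that of control. Adgre4 was found in 40.6%, 40.4% and 33.6% and Eno3 in 32.4%, 22.2% and 32.4%. The median cell held UMIs of 5 members in the control library, 6 in that of Ang II and 5 in the B6.SLE123 library, before thinning.

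**Figure D3:**
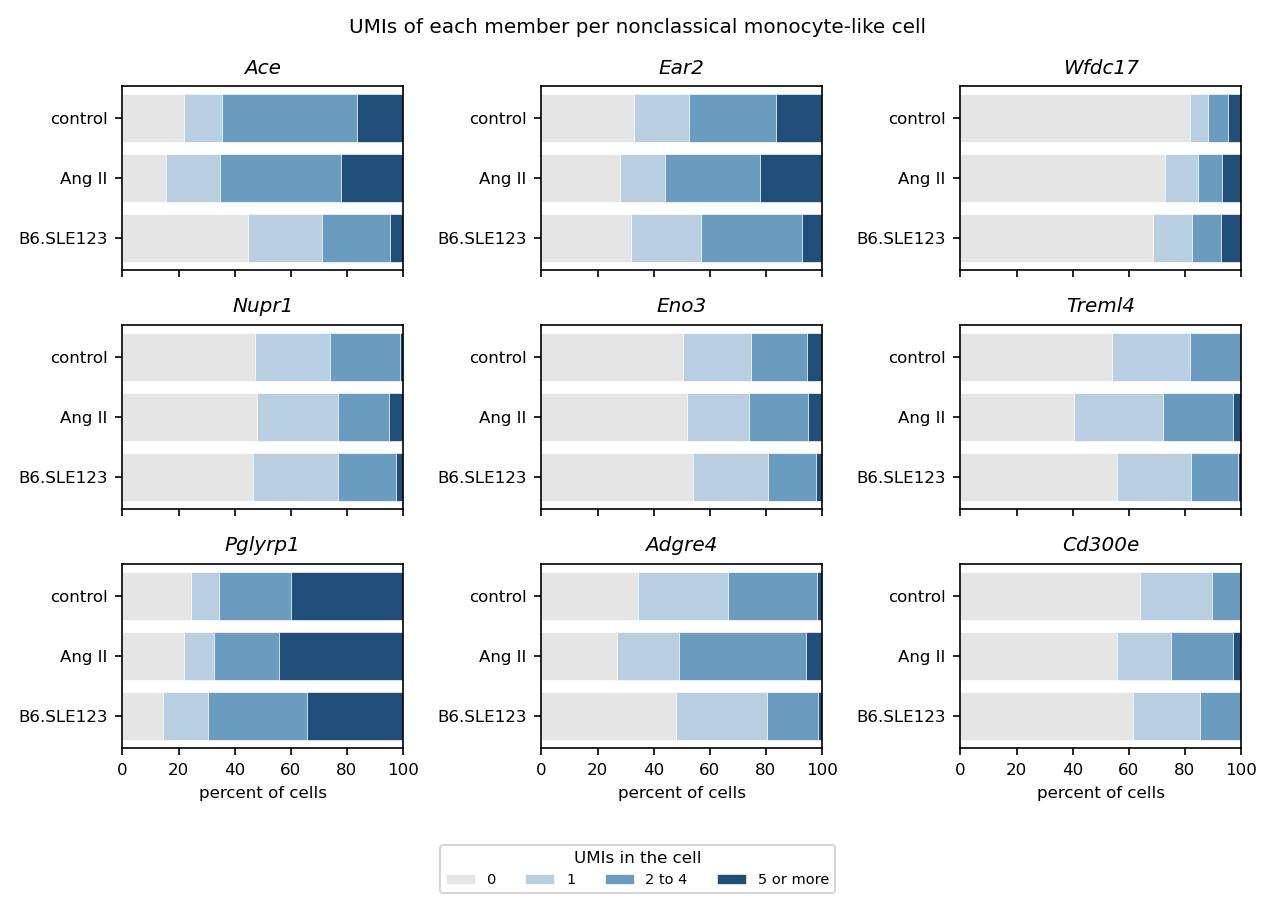
Share of nonclassical monocyte-like cells with 0, 1, 2 to 4, or 5 and more UMIs of each gene, as stacked bars in percent for each of the 3 libraries. The band of 5 or more Ace UMIs covers 16.4%, 22.1% and 4.44% of cells, while Wfdc17 is at 0 UMIs in most cells of every library.

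Cells with and without a Wfdc17 UMI differed in the other members. In the control library the 40 cells with Wfdc17 had 729 CPM of Ly6c2, a classical monocyte gene, and the 180 cells without it had 46.9 CPM. Their Pglyrp1 was 478 against 1920.1 CPM, their Cd300e 58.3 against 239 CPM, and their Ace 653 against 1056 CPM. For Pglyrp1, Cd300e and Ace, the control cells with Wfdc17 lay between the cells without it and classical monocyte-like cells, whose levels are given below. In the Ang II library Ly6c2 was 270.0 against 8.43 CPM, Pglyrp1 497 against 1741 CPM and Cd300e 61.4 against 358 CPM in 28 and 76 cells. The B6.SLE123 contrast was narrower, with Ly6c2 at 392 CPM in the 99 cells with Wfdc17 and 67.3 CPM in the 216 without it, Pglyrp1 at 1527 against 2626 CPM, Cd300e at 233 against 357 CPM and Ace at 429 against 685 CPM. Fcgr4, a marker that defines the gate, was lower in control cells with Wfdc17 (163 against 444 CPM). It was also lower in those of the Ang II library (67.5 against 278 CPM), and was 518 against 404 CPM in the B6.SLE123 library. In that library Fcgr4 was not particular to the gate, which held 278 of its 2141 UMIs, against 217 of 366 in control. Over all kept cells it stood at 49.6 CPM in B6.SLE123 and 10.8 CPM in control. Cells with Wfdc17 were deeper, with median UMIs of 4116 against 2026, 6084 against 2779, and 2387 against 1334 in the libraries of control, Ang II and B6.SLE123. These groups of cells were formed on Wfdc17 itself, and their contrasts are a description.

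Across gated classes, Ace was highest in nonclassical monocyte-like cells by a wide margin. In the control library it stood at 941 CPM there, at 151 CPM (49.0 to 353) in red pulp macrophage-like cells from 5 UMIs of 1 cell, at 61.8 CPM (39.6 to 92.0) in type 2 conventional dendritic cell (cDC2)-like cells and at 57.6 CPM (40.1 to 80.2) in classical monocyte-like cells. The intervals of the last 3 overlapped. It was 8.30 CPM in neutrophil-like and 1.01 CPM in B cell-like cells. In the B6.SLE123 library Ace was 14.9 CPM in red pulp macrophage-like cells from 1 UMI, too few to compare. In 4 other classes it was higher than in the control library as counted, with 92.2 CPM (66.7 to 124) in cDC2-like, 79.4 CPM (58.3 to 106) in classical monocyte-like, 19.4 CPM (14.0 to 26.3) in neutrophil-like and 2.59 CPM (2.06 to 3.22) in B cell-like cells. The intervals of cDC2-like and classical monocyte-like cells overlapped those of control, and those of neutrophil-like cells overlapped at their ends. Cells in no class held 13.1%, 10.7% and 21.8% of Ace UMIs in the libraries of control, Ang II and B6.SLE123, and the nonclassical gate held 73.0%, 73.7% and 46.5%.

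The order of classes was different for Wfdc17, and it was not the same in every library. In the control library classical monocyte-like cells led at 1169 CPM (1085 to 1258), neutrophil-like cells followed at 944 CPM (893 to 998), then red pulp macrophage-like cells at 483 CPM (276 to 785), cDC2-like cells at 309 CPM (256 to 369.7) and nonclassical monocyte-like cells at 211 CPM. The intervals of red pulp macrophage-like and cDC2-like cells overlapped. In the B6.SLE123 library 181 cells gated as C1q monocyte-derived dendritic cell-like, of which the control library had 4, led at 3903 CPM (3713 to 4100.5). Red pulp macrophage-like cells at 1516 CPM (1236 to 1840.3) and classical monocyte-like cells at 1447 CPM (1352 to 1548) came next with overlapping intervals, before neutrophil-like cells at 877 CPM (838 to 918). Nonclassical monocyte-like cells at 506 CPM and cDC2-like cells at 431 CPM (373 to 495) overlapped. The log2 ratio of Wfdc17 for B6.SLE123 was 0.31 (0.16 to 0.45) in classical monocyte-like cells and -0.11 (-0.21 to -0.00) in neutrophil-like cells. By hashtag, Wfdc17 in neutrophil-like cells ran from 256 to 4317 CPM in B6.SLE123 with a median of 1527. In control it ran from 569 to 1756 CPM with a median of 1036, so the medians went the other way. The lowest B6.SLE123 population, C0303, held 293 of the 727 neutrophil-like cells. B cell-like cells held 44.9 CPM in B6.SLE123 and 19.3 CPM in control, a ratio of 1.22 (1.08 to 1.37).

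Pglyrp1 was a neutrophil transcript here. It stood at 4975 CPM in neutrophil-like cells of the control library, 5004 CPM in the Ang II library and 8139 CPM in the B6.SLE123 library, and 53.6%, 71.1% and 65.7% of its UMIs were in those cells. In neutrophil-like cells the hashtag populations ran from 4017 to 5702 CPM in the control library and from 6505 to 8532 CPM in the B6.SLE123 library. These ranges did not overlap, but the share of all genes with ranges apart was not computed for neutrophil-like cells. The log2 ratio was 0.71 (0.67 to 0.75). In classical monocyte-like cells Pglyrp1 was 100.4, 109 and 255 CPM, with a log2 ratio for B6.SLE123 of 1.34 (0.91 to 1.80). B cell-like cells, in turn, held 134, 122 and 142 CPM. NK cell-like cells held 386, 367 and 358 CPM.

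The other members had second sites of their own. Cd300e, which separated both monocyte classes, had 0 UMIs in the classical monocyte-like cells of each library, a count that allows up to 4.94, 5.74 and 5.07 CPM in the libraries of control, Ang II and B6.SLE123. In the B6.SLE123 library Cd300e reached 493 CPM (427 to 567) in C1q dendritic cell-like cells, which held 33.8% of its UMIs against 31.3% in nonclassical monocyte-like cells. In the Ang II library Cd300e was 248 CPM (132 to 424) in red pulp macrophage-like cells, from 13 UMIs, and 237 CPM in nonclassical monocyte-like cells. Adgre4 was also found in red pulp macrophage-like cells at 332, 419.6 and 372 CPM, and at 323 CPM in B6.SLE123 C1q dendritic cell-like cells. Treml4 was found in red pulp macrophage-like cells at 272, 324 and 223 CPM and in type 1 conventional dendritic cell-like cells at 76.7, 141 and 90.8 CPM. Neither gene was therefore restricted to monocytes in these spleens. Ear2 stood at 332, 172 and 208 CPM in red pulp macrophage-like cells, which numbered 28, 40 and 60. Nupr1 was present in classical monocyte-like cells at 249, 191 and 312 CPM, so it separated the monocyte classes little. Eno3 was nearly absent from classical monocyte-like cells, at 6.59, 7.65 and 10.1 CPM, and was high in migratory dendritic cell-like cells at 451, 471 and 368 CPM, on 23, 22 and 50 cells.

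**Figure D4:**
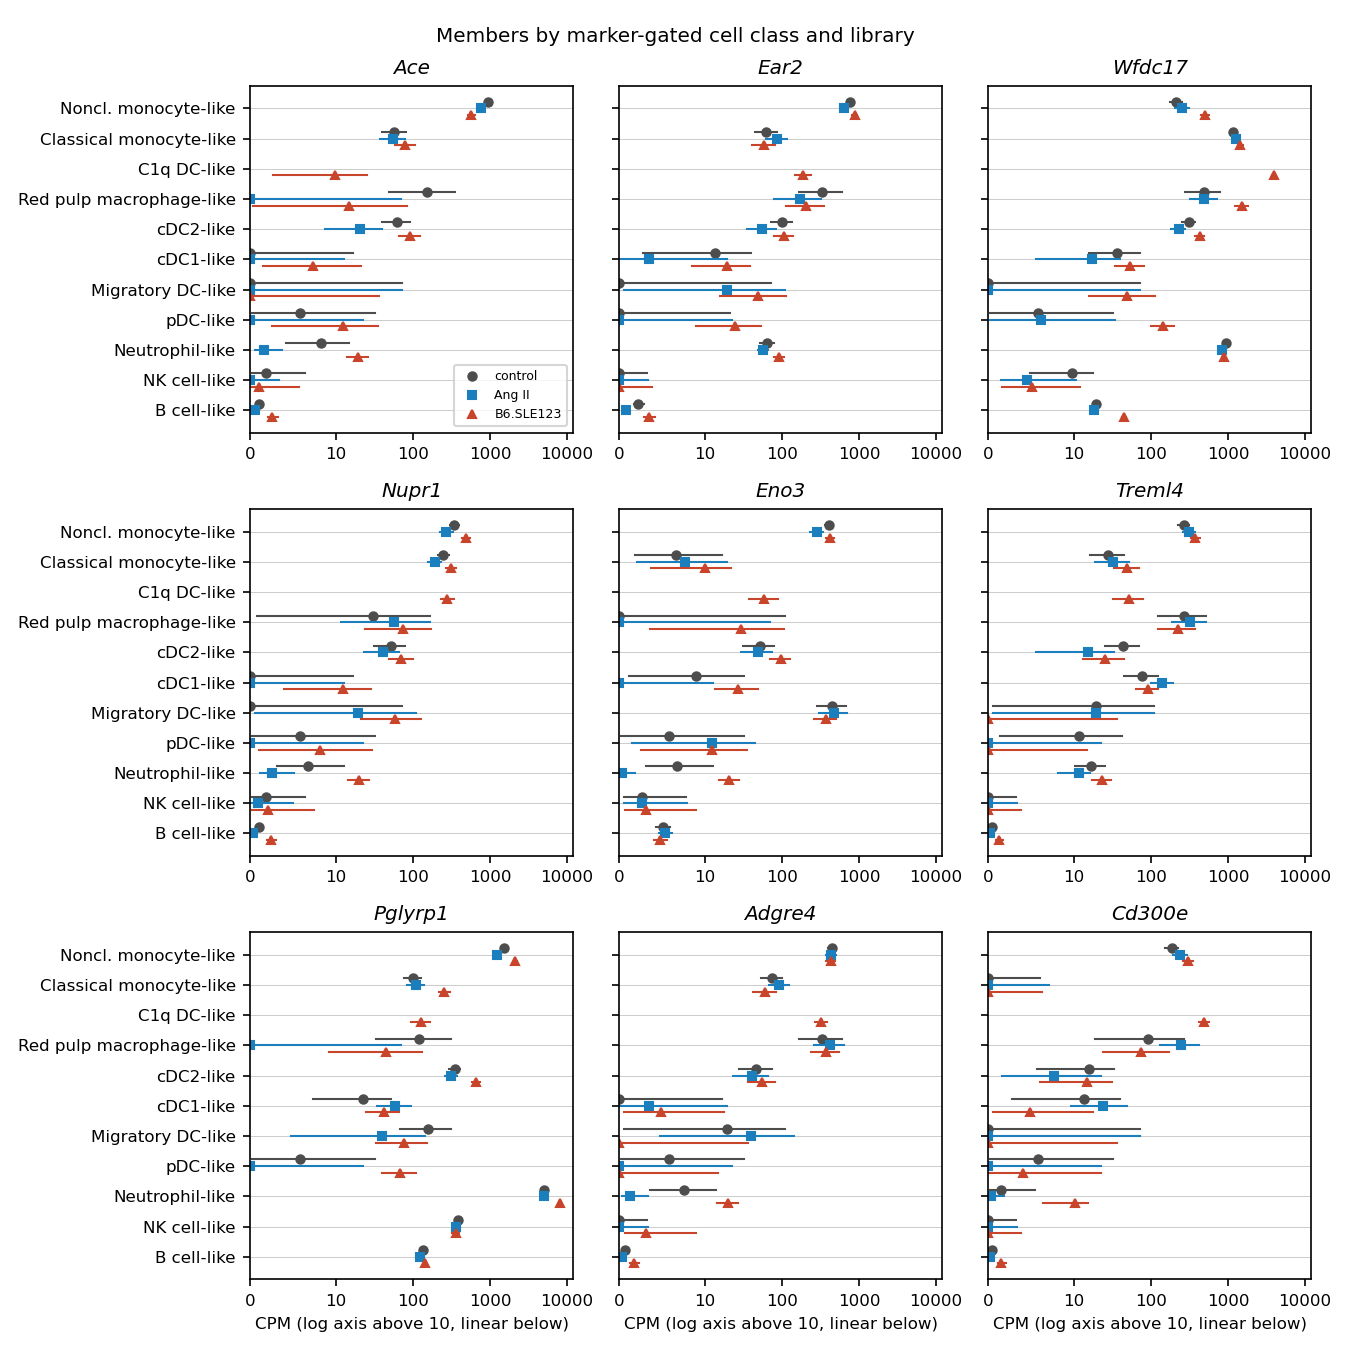
Levels of the 9 genes in 11 gated classes for the 3 libraries, in CPM on a scale that is linear near 0 and logarithmic above, with 95% counting intervals. Within the control library Ace and Cd300e peak in nonclassical monocyte-like cells, and Pglyrp1 peaks in neutrophil-like cells. Wfdc17 reaches 3903 CPM in the C1q dendritic cell-like cells of the B6.SLE123 library, where Cd300e is also above its level in nonclassical monocyte-like cells.

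Over all kept cells, 7 of the 9 members were lower in the Ang II library than in the control library, and 8 were higher in the B6.SLE123 library. In such a sum, fewer cells of a type and less RNA per cell cannot be told apart, so the share of gated cells is given with it. Of 12495 genes compared for Ang II, 3.10% differed 2-fold or more, and 2 of the 9 members did, both lower. Ace was 22.8 CPM in the control library and 9.01 CPM in the Ang II library, a log2 ratio of -1.34 (-1.51 to -1.16), and Nupr1 was 15.5 and 6.53 CPM, a ratio of -1.25 (-1.46 to -1.04). By hashtag Ace had a lowest, median and highest level of 13.4, 19.5 and 35.5 CPM in the control library and of 4.39, 8.35 and 13.8 CPM in the Ang II library, so the ranges overlapped only at their edge. Control hashtag C0305 was the highest, and without it Ace was at -1.12 and Nupr1 at -0.82. Ear2 (-0.82), Adgre4 (-0.91), Eno3 (-0.76), Cd300e (-0.67) and Treml4 (-0.45) were lower as well, short of 2-fold. The median was -0.76 over the members and 0.03 over all genes. Pglyrp1 at 0.40 (0.37 to 0.43) was higher, and Wfdc17 at 0.05 (-0.01 to 0.12) was level. The limits read as UMIs turned Pglyrp1 to -0.11. Against control cells with an Xist UMI, which do not match the Ang II cells in sex, Pglyrp1 was at 1.11 and Wfdc17 at 0.82.

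For B6.SLE123, 8.67% of 12484 genes differed 2-fold or more over all kept cells, and 1 of the 9 members did. Cd300e was 4.79 CPM in the control library and 13.7 CPM in the B6.SLE123 library, a log2 ratio of 1.52 (1.26 to 1.77). Its B6.SLE123 populations were between 4.29 and 8.97 CPM except hashtag C0303 at 37.9 CPM, against 2.09 to 9.35 CPM in the control library, and without C0303 the ratio was 0.41. Wfdc17 was 91.6 and 165 CPM (0.85, 0.79 to 0.91) and Pglyrp1 was 364 and 620.5 CPM (0.77, 0.74 to 0.80). Nupr1 (0.60), Treml4 (0.51), Ear2 (0.43), Adgre4 (0.42) and Eno3 (0.22) were higher. Without C0303 all 5 turned sign, to -0.07, -0.07, -0.26, -0.26 and -0.20 in the same order, while Wfdc17 was at 0.45 and Pglyrp1 at 0.17. Ace alone was lower, at 17.5 CPM (-0.38, -0.53 to -0.24), and its ratio turned to 0.21 with the cell limits read as UMIs and also changed sign when cells were thinned. The median was 0.51 over the members and -0.08 over all genes.

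The share of nonclassical monocyte-like cells differed between libraries beyond counting error. In the control library they were 1.40% of kept cells (1.22 to 1.60). Ang II had a lower share of 0.742% (0.606 to 0.898), and B6.SLE123 had 1.89% (1.68 to 2.10). As a log2 ratio of shares this came to -0.92 (-1.27 to -0.58) in Ang II against control, and to 0.43 (0.18 to 0.68) in B6.SLE123. By hashtag the share ran from 0.716% to 2.12% in the control library and from 0.382% to 1.25% in the Ang II library, which overlapped. In the B6.SLE123 library hashtag C0303 stood at 4.61% and the others between 0.870% and 1.86%, and without C0303 the ratio was -0.11, so the higher share rested on that population. The same population held 144 of the 181 C1q dendritic cell-like cells of its library. The CD3 depletion acts on T cells, and the 303 T cell-like cells of the Ang II library, 2.16% of its kept cells, enter the denominator of the share. Classical monocyte-like cells made up 0.834%, 0.521% and 0.766%, and the Ang II share had a log2 ratio of -0.68 (-1.11 to -0.26).

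**Figure D5:**
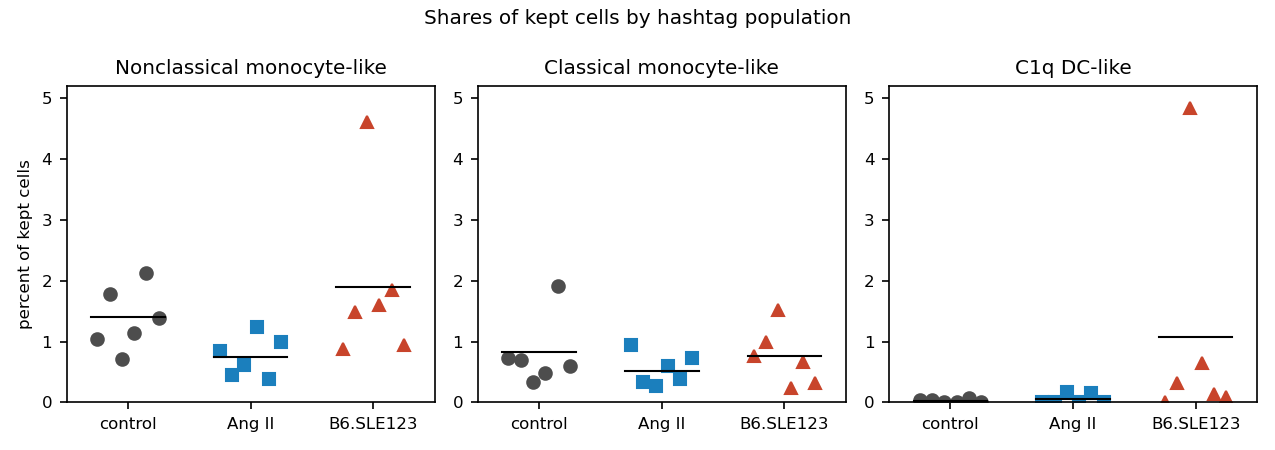
Share of kept cells, in percent, gated as nonclassical monocyte-, classical monocyte- and C1q dendritic cell-like, in each hashtag population (points) of the 3 libraries, with a black line at the library's share. The B6.SLE123 hashtag C0303 stands at 4.61% for nonclassical monocyte-like cells, above the 0.870% to 1.86% of the other 5.

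A list of 20 other genes of nonclassical monocytes was read in the same gate. It holds all 6 genes that define the gate, so its count and median are in part set by how the cells were chosen. In B6.SLE123, 1 of 20 differed 2-fold or more, Ifitm6, an interferon-induced transmembrane family gene. It was 767 CPM in the control, 505 CPM in the Ang II and 377 CPM in the B6.SLE123 library. The log2 ratio for B6.SLE123 was -1.02 (-1.26 to -0.79). Classical monocyte-like cells held more Ifitm6, with 858, 553 and 519 CPM in the same order. There too it was lower in B6.SLE123, at -0.73 (-0.93 to -0.52). In the nonclassical gate the list's median log2 ratio was -0.04. Csf1r, the receptor of the monocyte growth factor, stood at 959, 1012 and 1065 CPM in the libraries of control, Ang II and B6.SLE123, Nr4a1, the nuclear receptor of these cells, at 537, 445 and 453 CPM, and Cx3cr1, the fractalkine receptor, at 390.0, 345 and 301 CPM. Itgal, the alpha chain of LFA-1, stood at 968, 817 and 679.7 CPM. In Ang II, 0 of the 19 genes that could be compared reached 2-fold and the median was -0.24, with Fcgr4 the lowest at 192 against 363 CPM (-0.92). Of 8 classical monocyte genes, 5 could be compared in B6.SLE123 and 2 were lower by 2-fold or more, Ccr2 (-1.10) and Fn1 (-1.55). In Ang II, 6 could be compared, of which F13a1 was higher (1.44) and Ly6c2 lower (-1.08). Ly6c2, Ccr2, Chil3, F13a1 and Vcan are markers of the classical class. Cells with more of them went to that class, so their levels here are also in part set by the gating. Over all genes compared in the gate, 3.68% in B6.SLE123 and 2.10% in Ang II differed 2-fold or more.

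Of 16 other genes of the renin-angiotensin system, few were detected beside Ace. In nonclassical monocyte-like cells 3 reached 50 UMIs, Lnpep (194, 225 and 179.7 CPM), Atp6ap2 (68.6, 75.0 and 57.2 CPM) and Prcp (104, 130.0 and 114 CPM), and 0 of the 3 differed 2-fold in either contrast. Lnpep is a peptidase that binds angiotensin IV, Atp6ap2 the prorenin receptor, and Prcp a carboxypeptidase that cleaves angiotensin II. Agt, Ren1, Agtr1a, Agtr1b, Agtr2, Mas1, Mme and Thop1 had 0 UMIs in these cells in each library, which allows up to 5.02 CPM in the control, 7.50 CPM in the Ang II and 4.90 CPM in the B6.SLE123 library. Neither the precursor of the enzyme's substrate nor a receptor of its product was detectable in these cells at this depth. Over all kept cells, 1 of 7 genes compared was higher in B6.SLE123, the granule protease Ctsg (0.651 against 11.3 CPM), and 1 of 6 was lower in Ang II, the mast cell chymase Cma1 (15.2 against 6.86 CPM).

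Most relatives of the members had few UMIs in the gate. Of 25 such genes 8 could be compared, and 0 differed 2-fold in either contrast. The paralogs Ear1, Ear6, Ear10 and Ear14 had 0 UMIs there, as did Wfdc18, and Wfdc21 had 1 UMI in the B6.SLE123 library. Eno1, the common enolase, stood at 668, 639.8 and 619 CPM. Cd300a, an inhibitory receptor, stood at 584, 489.8 and 451 CPM, and the adhesion receptor Adgre5 at 708, 695 and 717 CPM.

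The pattern over libraries and classes was compared for all genes with 50 or more UMIs, as Pearson's r of log2(CPM + 1) over the 40 combinations of library and class with at least 20 cells. These points share libraries, and r is a description. Ly6i was most like Ace with r = 0.95, followed by Clec4a3 and Ms4a4a with 0.83 each and by Gm9733 with 0.82. For Wfdc17 the nearest genes were Clec4a2 (0.88), Klra2 (0.86), Pilrb2 (0.85), Tlr13 (0.84) and Clec4a3 (0.84). Among the members, Nupr1 (0.79) and Adgre4 (0.73) were most like Ace, and Nupr1 (0.75) and Ear2 (0.72) most like Wfdc17. Eno3 and Pglyrp1 were the least like either, with r of 0.44 and 0.39 to Ace and of 0.16 and 0.24 to Wfdc17.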

How the data were processed

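The authors aligned and counted reads with Cell Ranger 6.0.0 on mm10, and the deposited tables used here held unnormalized UMI counts of genes and hashtags. The 9 genes and all lists were chosen with earlier results of these data known. Cells with over 200 and under 3500 detected genes and under 15% mitochondrial UMIs were kept. The methods of the study name RNA counts for these limits, and the reading as genes is a choice made here, with UMIs as an alternative. Barcodes on which more than 1 hashtag was positive were dropped as doublets, and doublets of the same hashtag were not detectable. Each cell joined the 1 of 17 classes with the largest share of its markers detected, at least 2. Monocyte-like cells also needed 1 Csf1r UMI and fewer than 10 S100a8 and S100a9 and 3 C1q UMIs, limits set after the files were seen. Counts were summed per library and class and scaled to CPM in Python 3.11.15 with numpy 2.4.6, pandas 2.3.3 and scipy 1.17.1. Levels have exact Poisson intervals, shares Clopper-Pearson intervals and ratios exact conditional binomial intervals, each at 95%. A count of 0 was read as up to 3 UMIs. Genes with at least 50 UMIs over both libraries were compared, and 2-fold was a log2 ratio of 1. The 9 members and the genes of the fixed lists were named whatever their values, with the 5 genes nearest to Ace and to Wfdc17 in pattern, except for a few items that are not reported here. The scripts were tested on simulated counts. Alternatives were the filters, the gate, depth, scaling, control cells and each hashtag population left out.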

Additional observations from a re-analysis of the deposited data

Results flagged for a closer look

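In 33 groups of 6 hashtag populations, the levels of the members in nonclassical monocyte-like cells and the shares of 2 cell classes were searched for a population far from the other 5, and 4 were found. Chance gives such a result in about 1 in 20 groups. Ear2 in control nonclassical monocyte-like cells was 1093 CPM with hashtag C0302, where the next population was at 782 CPM and the lowest at 641 CPM. Adgre4 in B6.SLE123 nonclassical monocyte-like cells was 598 CPM with hashtag C0304, where the next was at 418 CPM and the lowest at 389 CPM. The share of nonclassical monocyte-like cells in the B6.SLE123 library was 4.61% with hashtag C0303, where the next was at 1.86% and the lowest at 0.870%. The share of C1q dendritic cell-like cells was 4.85% with the same hashtag, where the next was at 0.650% and the lowest at 0%. The labels do not say if a hashtag stands for 1 mouse, and no cause was tested.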

How the results depend on the processing

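No paired analysis was possible because each group was 1 library and no hashtag was named for a condition. Of 212 alternatives to the 10 results of the comparisons, 173 left the value near its main one and 39 moved it, among which the share ratio for B6.SLE123 turned from 0.43 to -0.11 without its hashtag C0303. Of 774 alternatives to 36 single log2 ratios, 646 left the value within its counting interval and 128 moved it. The cause of these changes was not tested. With the cell limits read as UMIs, members past 2-fold over all kept cells numbered 6 in place of 1 for B6.SLE123 and 4 in place of 2 for Ang II, 1 member had hashtag ranges apart for B6.SLE123, and the share ratio for B6.SLE123 was 0.79 in place of 0.43. With cells thinned to 1000 UMIs and gated anew, 2 members in place of 1 passed 2-fold in the gate and 4 over all kept cells for B6.SLE123. In each contrast 2 of the other nonclassical genes did. With control cells with an Xist UMI only, 0 members passed in the gate and 3 over all kept cells for B6.SLE123, and 3 had ranges apart. With the wider gate 0 members passed for B6.SLE123 and 1 other nonclassical gene for Ang II. The stricter gate gave a share ratio of 0.11. Other nonclassical genes past 2-fold for B6.SLE123 numbered 0 in place of 1 with the limits as UMIs, several hashtags kept, the stricter or wider gate, or control cells with Xist. With neutrophil- or C1q-rich cells kept, an alternative chosen after seeing the data, that number was 0 and 2 members had ranges apart. Leaving out 1 hashtag population gave 0 to 3 members past 2-fold over all kept cells for B6.SLE123 (0 without its C0303, 3 without control C0305) and 1 to 3 for Ang II (1 without control C0305, 3 without Ang II C0304). It gave 0 to 1 members with ranges apart for B6.SLE123 and 0 for Ang II, 0 to 1 other nonclassical genes in each contrast, and a share ratio of -0.11 to 0.60 for B6.SLE123 and of -1.15 to -0.75 for Ang II. The scarcest members, Cd300e and Wfdc17 with 95 and 102 UMIs in the Ang II gate, have the widest intervals.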
